A study of Rattus norvegicus with 24 samples.

Results

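CD antigens are cell surface proteins that carry a cluster of differentiation number and are used to tell leukocytes and other cells apart. The members described here were the gene probes whose name in the files, or whose current symbol by accession, was Cd with a number and at most 1 letter after it. Cd14, Cd44, Cd68, Cd74 and Cd163 were left out by name. This gave 58 genes with 72 probes, among 35188 names on the array. Of these genes, 46 had a probe bright enough to be tested, among 25703 features tested in all. The 46 were sorted by textbook expression into 13 antigens of T and natural killer (NK) cells, 5 of B cells, 6 of myeloid and dendritic cells, 3 shared by leukocytes, 17 of non-immune or broad expression, and 2 left unclassified (Cd70 and Adgre5, named Cd97 in the files).

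RNA came from colonic tumours and from normal tissue of the distal colon of 10 male (ACIxF344)F1-Pirc rats, 97 days old, all of genotype Apc-Pirc/+. These rats carry 1 mutant copy of Apc, a brake on Wnt signalling, and form tumours in the colon. Rats 1, 5, 6, 7 and 9 had drunk 4% dextran sodium sulfate (DSS, a polymer that injures the colonic lining) from day 40 to 47 and from day 54 to 61, and rats 2, 3, 4, 8 and 10 were untreated. The groups were therefore tumours of DSS rats, tumours of untreated rats, normal colon of DSS rats and normal colon of untreated rats, with 5 rats each and 6, 5, 6 and 7 arrays. No group came from rats without the Apc mutation, since such colon entered only as the pooled Cy5 reference on every array. All values below are log2 ratios of the Cy3 sample over that Cy5 pool, so that a ratio of 0 means the level of the pool, and levels of different genes cannot be set against each other.

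T cells are marked by the chains of the CD3 complex, which signal for the T cell receptor, and by the co-receptors CD4 and CD8. B cells carry CD22 and the CD79 chains of their receptor, while dendritic cells and macrophages display CD80, CD83 and CD86, which help to activate T cells. Many CD numbers belong to molecules that epithelial and stromal cells also use. Among them are the tetraspanins CD9, CD63, CD81, CD82 and CD151, which organise membrane partners, and CD55 and CD59, which protect cells from complement. In whole tissue, fewer cells of a type and less RNA per cell cannot be told apart.

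Each probe was an oligonucleotide of 60 bases. The probes of members on which the tumour comparisons turn are given first, 5′ to 3′. These 6 genes had 1 probe each, so that their values rest on a single stretch of transcript.
Cd302 probe: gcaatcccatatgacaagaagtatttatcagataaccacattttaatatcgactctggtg
Cd63 probe: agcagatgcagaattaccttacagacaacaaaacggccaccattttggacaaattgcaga
Cd81 probe: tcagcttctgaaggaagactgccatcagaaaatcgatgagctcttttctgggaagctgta
Cd55 probe: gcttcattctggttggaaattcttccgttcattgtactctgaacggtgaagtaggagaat
Cd2 probe: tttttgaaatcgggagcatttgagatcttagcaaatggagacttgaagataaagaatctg
Cd48 probe: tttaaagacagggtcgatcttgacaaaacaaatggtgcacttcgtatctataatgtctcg
Cd320 had 4 probes, and 2 of them overlap. The 15 bases that both hold are in capitals, which shows that these readings of Cd320 share sequence.
Cd320 first probe: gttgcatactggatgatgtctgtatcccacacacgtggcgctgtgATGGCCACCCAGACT
Cd320 second probe: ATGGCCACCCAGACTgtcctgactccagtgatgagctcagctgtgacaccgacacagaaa

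Before the comparisons, some libraries stood apart. On 3 arrays between 86.9% and 95.2% of the gene probes were well above background, against 47.6% to 70.5% on the other 21: tumour of DSS rat 9, normal colon of untreated rat 4 and 1 of the 2 arrays of normal colon of untreated rat 2. The 6 slides fell into 2 runs of slide numbers, called slide set 1 (3 rats of every group) and slide set 2 (2 rats of every group). Saturated Cy5 probes numbered 388 to 452 on the arrays of set 2 and 29 to 152 on those of set 1. Normal colon of DSS rats 1 and 5 correlated at 0.970 across features, above the 0.814 to 0.968 of repeat arrays of 1 sample and the 0.728 to 0.864 of the other 9 pairs in that group. All 9 tested markers of colonic epithelium, Epcam and Cdh1 among them, were well above background on every array. Normal colon of DSS rats also held a signal of squamous epithelium: the mean log2 ratio of its 6 tested markers (Krt5, Krt10, Krt14, Dsg3, Krtdap and Slurp1) lay between 2.68 and 4.03 in normal colon of DSS rats, against 0.00 to 0.14 in that of untreated rats 2, 3, 4 and 10 and 1.64 in that of untreated rat 8. In tumours it lay between -0.14 and 0.05 in DSS rats and between -0.03 and 0.30 in untreated rats.

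Of the 58 antigens, 12 were well above background on only 1 to 4 of the 24 arrays and were not tested. They included Cd4, the co-receptor of helper T cells, Cd28, the co-stimulatory receptor of T cells, and Cd96 among T and NK cell antigens. Cd180 was missing from the B cell class, and Cd80, Cd209a and Cd209d from the myeloid class. Also among them were Cd244l1, Cd84, Cd34, an antigen of endothelium and blood progenitors, and the complement regulator Cd46. Cd24, a small glycoprotein of epithelium and immature lymphocytes, was at the other end: its brightest probe was saturated in Cy3 on 20 of 24 arrays and in Cy5 on 10, so its ratios carry little information. In the plot of all 46 tested antigens by rat, most rows of the T and B cell classes differ little between groups. Cd302, Cd177, Cd63 and Cd81 differ by tissue both with and without DSS. Across all rats, some tumour and normal values of Cd302, Cd177 and Cd81 still overlap. Cd83 sets tumours apart from normal colon only where no DSS was given.

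**Figure D1:**
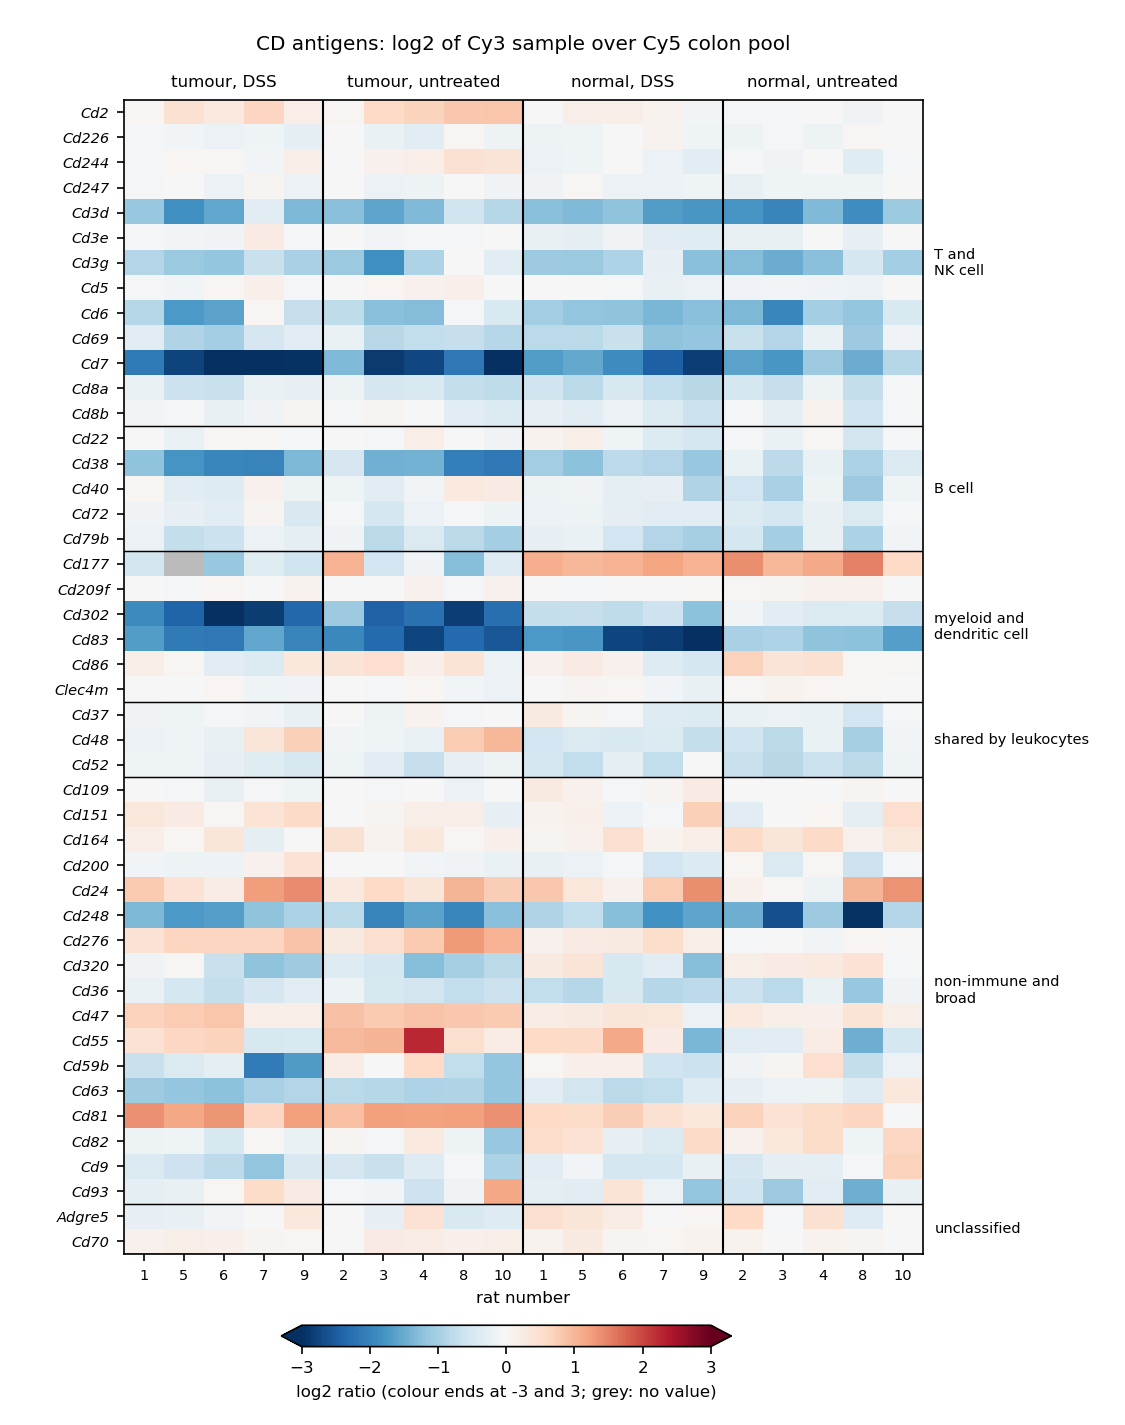
Log2 ratio of Cy3 sample over Cy5 colon pool for the 46 tested CD antigens (rows, by class) in the 20 rat and tissue samples (columns, by group and rat number), with red above and blue below the pool. Cd302 is at -1.10 or below in every tumour and at -1.23 or above in every normal colon, and Cd81 is at 0.61 or above in every tumour.

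The first comparison, tumour against normal colon in untreated rats, asks how a tumour differs from its surrounding colon without the irritant. Here 7 antigens rose and 7 fell among 46 at an adjusted p under 0.05 in limma, 30.4% of those tested, where 18.2% of all features passed. By direction, 15.2% of the members rose and 15.2% fell, against 8.73% and 9.52% of all features. The members' median log2 change was 0.05, beside a median of -0.0016 over all features. The antigens that rose were Cd2 and Cd244 of T and NK cells, the shared leukocyte antigen Cd48, and Cd55, Cd276, Cd81 and Cd47 of broad expression. Those that fell were Cd7, Cd38, the myeloid antigens Cd302, Cd177 and Cd83, and Cd63 and Cd320 of broad expression. By class, 3 of 6 myeloid antigens fell and none rose, with log2 changes from -1.78 to -0.03 and a median of -0.64. Of 13 T and NK cell antigens, 2 rose and 1 fell, with a median of 0.10. The classes were not compared by a test.

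The myeloid and dendritic cell antigens gave the largest decreases. Cd302 encodes a C-type lectin receptor of macrophages and dendritic cells. Its log2 ratio in tumours of untreated rats was -1.10, -2.43, -2.25, -2.82 and -2.25 in rats 2, 3, 4, 8 and 10, against -0.08, -0.34, -0.42, -0.41 and -0.69 in normal colon of the same rats. Every tumour lay below every normal colon, and the change of -1.78 ± 0.28 on the log2 scale (standard error, 5 rats per group, here and below) was a 3.43-fold decrease with an adjusted p of 0.000262. Cd177, a glycoprotein of neutrophils, was at 1.04, -0.58, -0.11, -1.28 and -0.38 in tumours, against 1.40, 0.99, 1.14, 1.52 and 0.59 in normal colon. The tumour of rat 2 alone reached into the range of normal colon, yet Cd177 was lower in the tumour of each of the 5 rats. It fell by 2.62-fold (adjusted p = 0.00352). Its single probe had the name Cd177 only in the files of slide set 2 and another name in those of slide set 1. Whether it reads Cd177 thus rests on that name. Cd83, a marker of mature dendritic cells and activated lymphocytes, was at -1.94, -2.33, -2.75, -2.34 and -2.57 in tumours, against -0.98, -0.92, -1.21, -1.24 and -1.66 in normal colon. The groups did not overlap, and Cd83 fell by 2.28-fold (adjusted p = 0.00537), as did its second probe, by 0.70 on the log2 scale (adjusted p = 0.0297 over all probes). Cd86, the co-stimulatory ligand of antigen-presenting cells, differed by -0.06 (95% confidence interval -0.45 to 0.33) and did not pass, nor did Cd209f and Clec4m.

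Markers of myeloid cells without a CD name, listed with earlier results of these data known, moved the other way in the same comparison. Among 14 macrophage and dendritic cell markers, 10 were higher and none lower at an adjusted p under 0.05 in limma, with a median log2 change of 0.73. Their mean log2 ratio ran from -0.03 to 0.90 in tumours and from -0.73 to -0.23 in normal colon of untreated rats. Among 8 neutrophil markers, 6 were higher and none lower, with a median of 0.47. The single probe named Cd177 fell in the same samples. The neutrophil mean ran from 0.78 to 1.79 in tumours and from -0.05 to 0.25 in normal colon. Colonic epithelium markers fell in 3 of 9, with means of -0.65 to 0.43 in tumours and 0.20 to 0.63 in normal colon. The part of these cell types in the values of Cd302, Cd177 and Cd83 was not tested.

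**Figure D2:**
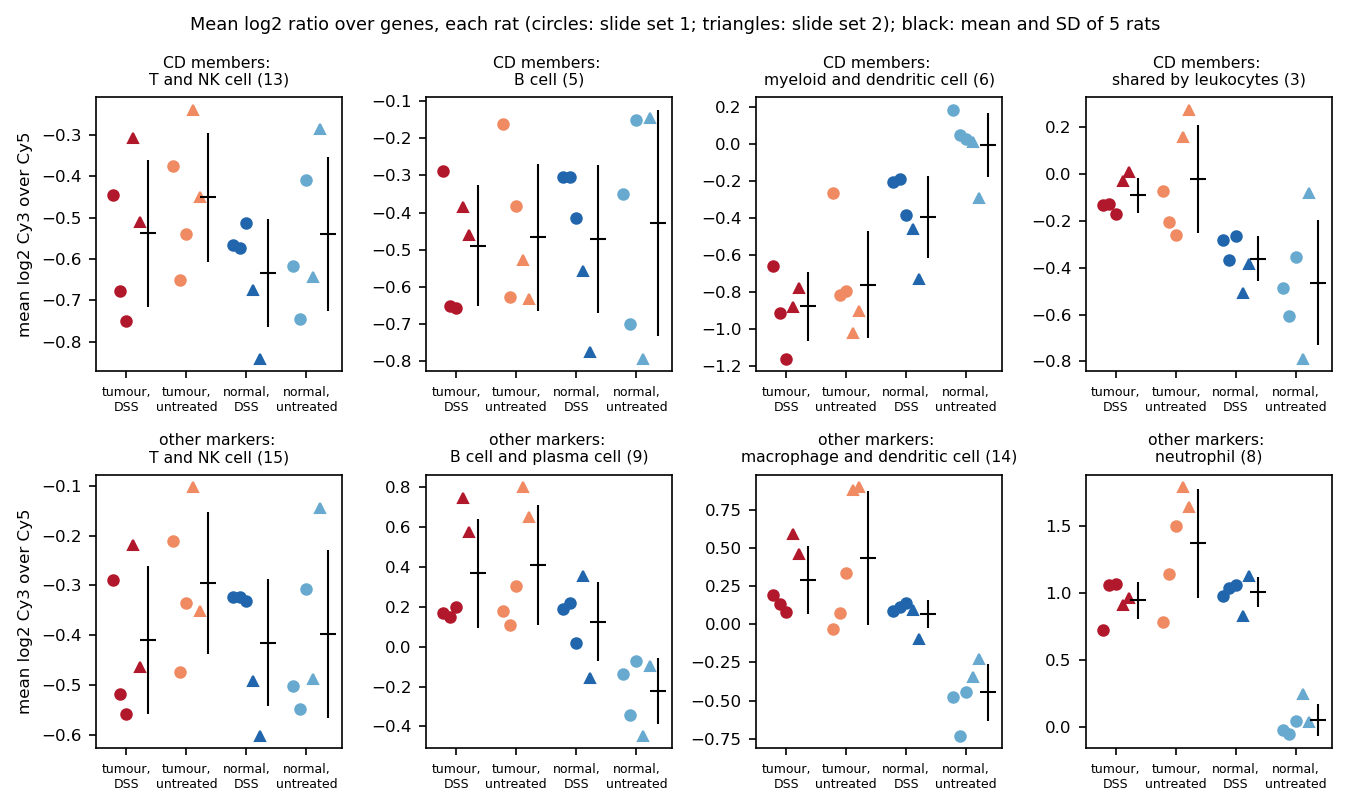
Mean log2 ratio over the genes of a list in each rat, for 4 classes of CD antigens (top row) and 4 lists of markers without a CD name (bottom row), with the number of genes in parentheses, circles for slide set 1, triangles for slide set 2, and black bars for mean and SD of 5 rats. The myeloid CD antigens average -1.02 to -0.27 in tumours of untreated rats and -0.29 to 0.19 in their normal colon, while the macrophage and neutrophil markers lie higher in those tumours than in that normal colon.

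Of the T and NK cell antigens, Cd2, an adhesion receptor that binds CD48 and aids T cell contact, was at 0.05, 0.60, 0.66, 0.81 and 0.84 in tumours of untreated rats. In their normal colon it lay between -0.11 and -0.00. All tumours were above all normal samples, although the tumour of rat 2 only just, and Cd2 rose by 0.63 ± 0.13 (1.55-fold, adjusted p = 0.00205). Cd2 was well above background on 5 of 5 tumour arrays and on 3 of 7 normal arrays. Cd244, a receptor of NK and cytotoxic T cells whose ligand is CD48, averaged 0.24 ± 0.18 in tumours and -0.10 ± 0.15 in normal colon (SD, 5 rats) and rose by 1.27-fold (adjusted p = 0.0162). Cd244 was higher in the tumour of each of the 5 rats, although the groups overlapped, and the call was lost without rat 8 or 10. Over the alternative settings its log2 change ran from 0.16 to 1.18, and that of Cd2 from 0.46 to 2.31. Cd48 itself, on most leukocytes, was at -0.09, -0.12, -0.19, 0.77 and 0.99 in tumours, against -0.59, -0.81, -0.21, -0.99 and -0.09 in normal colon, and rose by 1.76-fold (adjusted p = 0.0241). Its change was 1.42 within slide set 2 and 0.41 within slide set 1, and leaving out rat 8 raised its adjusted p above 0.05. Among these samples Cd48 exceeded the pool only in the tumours of rats 8 and 10. The other shared antigens, the tetraspanin Cd37 and the small glycoprotein Cd52, differed by 0.21 and 0.31 and did not pass. Of 12 general leukocyte markers without a CD name, 4 were higher and 1 was lower. Their means ran from -0.14 to 0.25 in tumours and from -0.59 to -0.37 in normal colon of untreated rats. In DSS rats 0 of the 12 were higher in tumour and 1 was lower. Their part in the values of these antigens was not tested.

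The chains of the T cell receptor complex did not pass. Cd3d, with tumour values of -1.26, -1.58, -1.33, -0.60 and -0.85 and normal values of -1.76, -1.99, -1.32, -1.86 and -1.10, differed by 0.48 (95% confidence interval -0.04 to 1.004). Cd3e differed by 0.10 (interval -0.06 to 0.26), and Cd8a, the chain of the cytotoxic co-receptor, by -0.09 (interval -0.41 to 0.22). T and NK cell markers without a CD name were higher in 2 and lower in 1 of 15, with a median change of 0.09. Cd7, a co-stimulatory antigen of T and NK cells, went the other way: its log2 ratio was -1.33, -2.87, -2.74, -2.14 and -3.14 in tumours, against -1.61, -1.74, -1.09, -1.48 and -0.86 in normal colon. Only rat 2 had the higher value in the tumour, and Cd7 fell by 1.09 ± 0.33 (adjusted p = 0.0251). A second probe of Cd7 fell by 0.62 with an adjusted p of 0.230 over all probes, and with both probes averaged the call was lost. The Cd7 call was also lost without the 3 arrays with a raised share, and without rat 3, 4, 8 or 10.

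Among the B cell antigens, Cd38, an ectoenzyme that consumes NAD and is carried by plasma cells, other lymphocytes and many epithelia, fell. It was at -0.51, -1.43, -1.42, -2.06 and -2.14 in tumours of untreated rats, against -0.20, -0.79, -0.19, -0.94 and -0.44 in normal colon. The change of -1.002 ± 0.25 was a 2.003-fold decrease (adjusted p = 0.00927), seen in all 5 rats, and was lost without rat 10. Its second probe differed by -0.50 and did not pass (adjusted p = 0.146 over all probes). Cd40, through which helper T cells activate B cells and dendritic cells, was at -0.13, -0.35, -0.09, 0.29 and 0.25 in tumours, against -0.57, -0.98, -0.16, -1.10 and -0.13 in normal colon. It was higher in the tumour of every rat, by 0.58 ± 0.20, and missed the threshold with an adjusted p of 0.05001. With rat as a fixed block the adjusted p of Cd40 was 0.0370, and with slide set as a block 0.0422. Its second probe passed, at 0.25 (adjusted p = 0.0315 over all probes), as did the mean of both (adjusted p = 0.0313). Cd22, an inhibitory receptor of B cells, differed by 0.17 (95% confidence interval -0.10 to 0.43), and Cd79b, a chain of the B cell receptor complex, by -0.08 (interval -0.53 to 0.37). Neither passed. Among 9 markers of B and plasma cells without a CD name, 2 were higher and none lower, with a median of 0.49. Of 8 markers of lymphoid follicles, 3 were higher and 1 was lower, with a median of 0.27.

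Of the 17 antigens of broad expression, 4 rose and 2 fell in tumours of untreated rats, where 8.73% of all features rose and 9.52% fell. Fibroblast markers without a CD name were higher in 5 of 9 and lower in none, with means of -1.25 to 0.26 in tumours and -2.18 to -1.10 in normal colon, and their part in these values was not tested. Cd63, a tetraspanin of late endosomes and secreted vesicles, was at -0.82, -0.85, -0.92, -0.91 and -1.15 in tumours of untreated rats, against -0.26, -0.17, -0.16, -0.39 and 0.33 in normal colon. No values overlapped, and the tumours lay within a narrow band, with a decrease of 0.80 ± 0.12 on the log2 scale (adjusted p = 0.000218). Cd81, a tetraspanin that partners many integrins, was at 0.90, 1.24, 1.20, 1.23 and 1.37 in tumours, against 0.68, 0.43, 0.55, 0.64 and -0.06 in normal colon, and rose by 1.67-fold (adjusted p = 0.00202). The other tetraspanins of broad expression did not pass: Cd9 differed by -0.43 (95% confidence interval -0.86 to 0.01), Cd82 by -0.50 (interval -1.01 to 0.01) and Cd151 by 0.05 (interval -0.31 to 0.40). These 5 tetraspanins of broad expression thus held 1 increase and 1 decrease.

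Cd276 and Cd55, antigens of immune checkpoints and of complement control, also rose. Cd276, also called B7-H3, a relative of the CD80 and CD86 ligands, was at 0.27, 0.49, 0.79, 1.27 and 1.05 in tumours of untreated rats, against -0.04, -0.00, -0.08, 0.06 and 0.01 in normal colon. Normal colon stayed at the level of the pool in every rat, and the tumours rose by 1.72-fold (adjusted p = 0.000886). Cd55, decay-accelerating factor, was at 0.97, 1.03, 2.26, 0.49 and 0.23 in tumours, against -0.34, -0.33, 0.21, -1.46 and -0.52 in normal colon. All tumours lay above all normal samples, the lowest tumour by only a small step, and Cd55 rose by 2.79-fold (adjusted p = 0.0249). Its level differed between slide sets, but the change did not, at 1.57 within set 1 and 1.35 within set 2, and the call was lost without rat 2, 3, 4 or 8. Cd59b, named Cd59 in the files, the other complement inhibitor tested, did not pass at -0.14 (95% confidence interval -0.91 to 0.63).

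Cd47, the signal that protects cells from being engulfed through the receptor SIRPA, was read by 2 probes that disagreed. The brighter one was at 0.88, 0.78, 0.86, 0.80 and 0.78 in tumours of untreated rats, against 0.29, 0.18, 0.14, 0.41 and 0.17 in normal colon, with no overlap, and gave a 1.498-fold increase (adjusted p = 0.00317). The second probe averaged 0.38 ± 0.12 in tumours and 0.67 ± 0.41 in normal colon (SD, 5 rats), a change of -0.29 with an adjusted p of 0.349 over all probes. With both averaged, Cd47 did not pass, so its direction depends on the probe. Cd320, the receptor that takes up vitamin B12 bound to transcobalamin, was singled out after its values were seen. Its brightest probe was at -0.38, -0.51, -1.27, -1.005 and -0.80 in tumours, against 0.17, 0.26, 0.28, 0.43 and -0.05 in normal colon. No value overlapped, Cd320 fell by 1.01 ± 0.29 (adjusted p = 0.0186), and the changes of the other 3 probes were -0.97, -1.03 and -1.04. The call was lost without rat 4 or 8. Cd36, a fatty acid receptor, differed by 0.06, Cd200, an inhibitory ligand, by 0.12 and Cd109 by -0.05, and none of these passed.

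**Figure D3:**
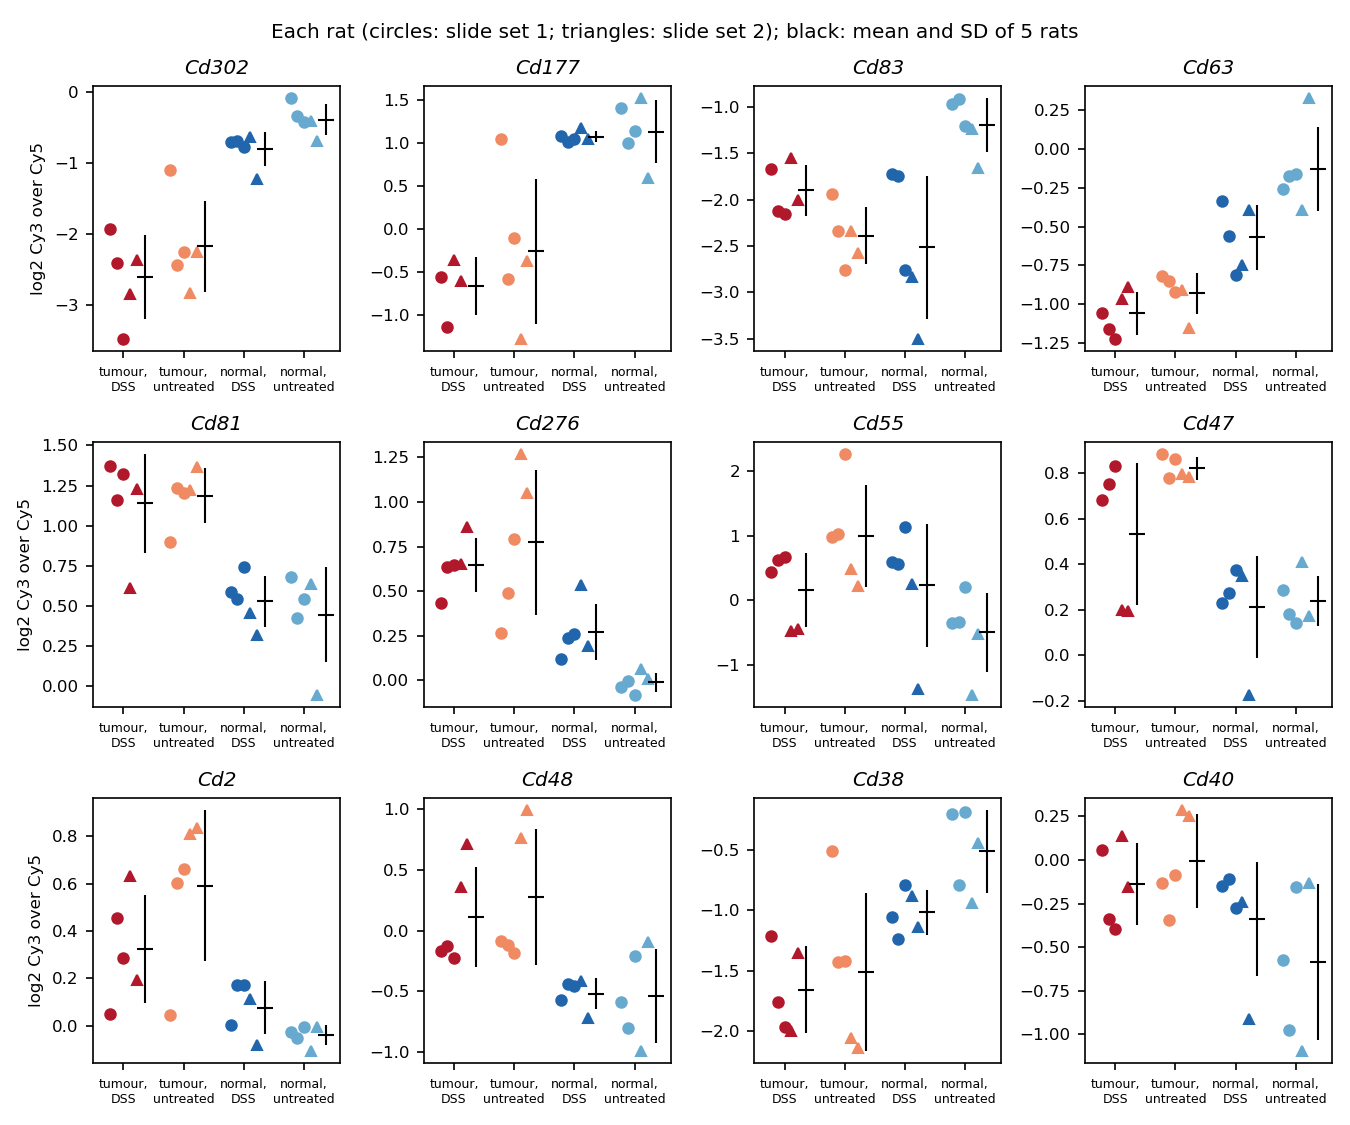
Log2 ratio over the colon pool in each rat for 12 CD antigens in the 4 groups, with circles for slide set 1, triangles for slide set 2, and black bars for mean and SD of 5 rats (4 for Cd177 in tumours of DSS rats). Cd63 lies between -1.22 and -0.82 in all tumours, and the tumour of untreated rat 2 has the highest Cd302, Cd177 and Cd38 of its group.

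Within slide set 1 alone 8 of the 14 calls in untreated rats passed, and within slide set 2 alone 6 passed. Without rat 8 the count was 9, while median centring in place of loess left only Cd2 and Cd48. The 32 antigens not called had log2 changes between -0.50 and 0.81, the highest being that of Cd93, a lectin-like antigen of endothelium and myeloid cells (adjusted p = 0.0914).

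The second comparison set tumours of DSS rats against normal colon of DSS rats, tissue exposed to the irritant weeks earlier. Here 2 antigens rose and 4 fell among 46, 13.0% of those tested, where 7.73% of all features passed. By direction this was 4.35% higher and 8.70% lower, against 3.82% and 3.91% of all features. The antigens that rose were Cd81 and Cd3e, and those that fell were Cd302, Cd177, Cd63 and Cd109. Cd81, Cd302, Cd177 and Cd63 passed in the same direction in untreated rats. The members' median log2 change was 0.08, beside 0.02 over all features.

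Cd302 was at -1.92, -2.40, -3.48, -2.85 and -2.36 in tumours of DSS rats 1, 5, 6, 7 and 9, against -0.71, -0.68, -0.77, -0.62 and -1.23 in their normal colon. Its decrease of 1.80 ± 0.28 on the log2 scale (adjusted p = 0.000484) came with no overlap. Cd177 was at -0.56, -1.14, -0.36 and -0.60 in tumours of rats 1, 6, 7 and 9, with no value for rat 5, against 1.08, 1.01, 1.05, 1.17 and 1.05 in normal colon. It fell by 3.33-fold (adjusted p = 0.00224, 4 tumours against 5 normal samples), and the normal values lay close together. Neutrophil markers without a CD name did not move with it: none of 8 passed, with means of 0.73 to 1.07 in tumours and 0.83 to 1.13 in normal colon. Of 14 macrophage and dendritic cell markers 1 was higher, with means of 0.08 to 0.59 in tumours and -0.10 to 0.14 in normal colon.

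Cd63 was at -1.06, -1.16, -1.22, -0.97 and -0.89 in tumours of DSS rats, against -0.33, -0.56, -0.81, -0.75 and -0.40 in normal colon, and fell by 0.49 ± 0.12 (adjusted p = 0.0174). The groups did not overlap. Under median centring, which put the median of all features at 0.26 in this comparison, its change turned to 0.24. Cd81 was at 1.37, 1.16, 1.32, 0.61 and 1.23 in tumours, against 0.59, 0.55, 0.74, 0.46 and 0.32 in normal colon, and rose by 1.53-fold (adjusted p = 0.0154). Only the tumour of rat 7 fell inside the normal range. The calls of Cd63 and Cd81 were lost when rat 1, 5 or 9 was left out, which left Cd302 and Cd177 as the antigens called.

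The other 2 calls were of antigens near background, with small changes in the main fit. Cd3e, the epsilon chain of CD3, was at -0.06, -0.08, -0.11, 0.23 and -0.05 in tumours of DSS rats, against -0.23, -0.29, -0.10, -0.33 and -0.37 in normal colon. It was well above background on 3 of 6 tumour arrays and 2 of 6 normal arrays, and its change was 0.25 ± 0.07 (adjusted p = 0.0474). With rat as a fixed block its adjusted p was 0.0720, and the call was kept in 5 of 25 other settings. Over those settings the change of Cd3e ran from 0.12 to 1.02. The related chain Cd3d differed by 0.20 (95% confidence interval -0.32 to 0.73) and Cd8a by 0.30 (interval -0.01 to 0.62). Of the other chains of the complex, Cd3g differed by -0.03 and Cd247 by 0.05, and neither passed. T and NK cell markers without a CD name were higher in 0 and lower in 1 of 15, with a median change of 0.11. Cd109, a glycoprotein of keratinocytes, platelets and activated T cells that binds transforming growth factor beta, was well above background on 0 of 6 tumour arrays and on 6 of 6 normal arrays of DSS rats. Its mean log2 ratio was -0.09 in tumours and 0.14 in normal colon, a difference of -0.23 in the tested ratio (adjusted p = 0.0297), a call lost in 12 of 24 other settings. In the Cy3 channel alone, which was not tested, the signal was at least 1.20-fold lower in tumours. The probe met the minimum of 5 arrays only through normal colon of DSS rats, where it is high, so its entry into the test depended on that group. With no filter another Cd109 probe, well above background on only 4 arrays, stood for the gene. That probe differed by -0.09 (adjusted p = 0.194 in limma). Fitted in limma over all probes without the filter, the first probe kept its -0.23 (adjusted p = 0.0222). The squamous markers moved with it, lower in tumour in 5 of 6, and their part in the Cd109 value was not tested.

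Several antigens missed the threshold in DSS rats although all or most tumours lay on one side of normal colon. Cd276 was higher by 0.38 (adjusted p = 0.129), and in the tumour of each of the 5 rats, with 0.43, 0.64, 0.65, 0.65 and 0.86 in tumours, against 0.12, 0.24, 0.26, 0.53 and 0.19 in normal colon. Cd48 was higher in all 5 tumours with no overlap, at -0.16, -0.13, -0.22, 0.36 and 0.71 in tumours, against -0.58, -0.44, -0.45, -0.41 and -0.72 in normal colon, and its adjusted p was 0.131. Cd47 differed by 0.32 with an adjusted p of 0.139, and of 0.0464 with rat as a fixed block. These values are from the brighter of its 2 probes, which disagreed in untreated rats. Cd59b, at -0.66, -0.43, -0.27, -2.10 and -1.69 in tumours, against 0.07, 0.16, 0.15, -0.61 and -0.63 in normal colon, was lower in each of the 5 rats. Its adjusted p was 0.191, and 0.0143 with rat as a fixed block. Cd38 differed by -0.64 (adjusted p = 0.147) and Cd7 by -0.82 (adjusted p = 0.152), each lower in all 5 tumours by its brightest probe. The second probes differed by -0.21 for Cd38 and by 0.16 for Cd7, so that the direction of Cd7 in DSS rats depends on the probe. Within slide set 2 alone none of the 46 antigens passed in DSS rats, median centring called only Cd48, and 4 passed with normal colon of rats 1 and 5 taken as 1 sample.

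**Figure D4:**
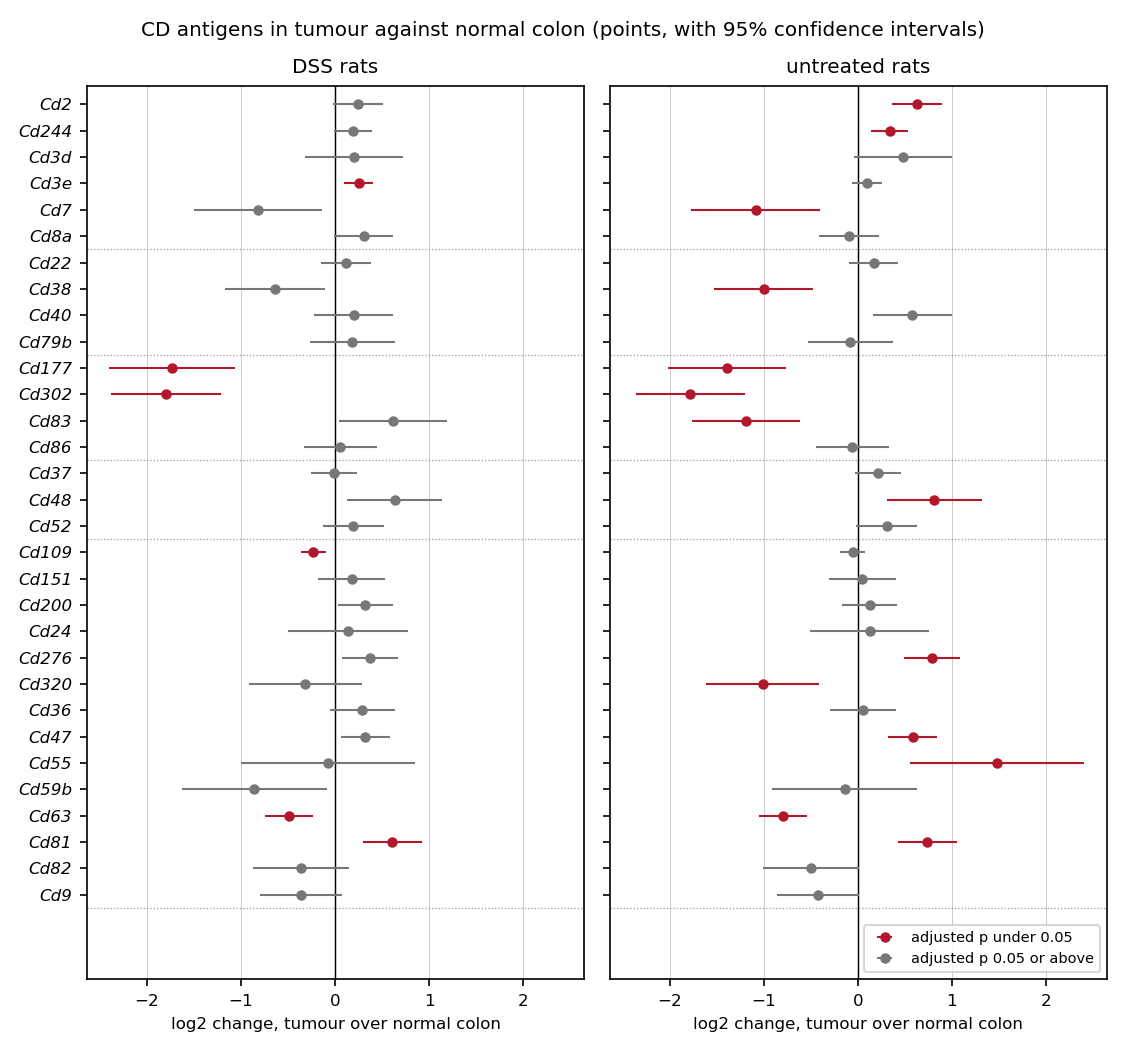
Log2 change of 31 CD antigens, tumour over normal colon, in DSS rats (left) and untreated rats (right), as points with 95% confidence intervals from limma and dotted lines between classes, red where the adjusted p was under 0.05. Cd302 and Cd177 lie below -1.3 in both panels, whereas Cd83 is at 0.61 in DSS rats and -1.19 in untreated rats.

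The third comparison, DSS against untreated in normal colon, asks what the irritant left behind at day 97. No antigen rose and 2 fell among 46, Cd83 and Cd63, which is 4.35% of the members, beside 7.36% of all features (3.99% higher, 3.37% lower). Cd83 was at -1.72, -1.75, -2.76, -2.84 and -3.50 in normal colon of DSS rats, against -0.98, -0.92, -1.21, -1.24 and -1.66 in normal colon of untreated rats. Every DSS value was below every untreated value, by a narrow margin for rats 1 and 5, and the decrease was 2.49-fold (adjusted p = 0.00619). The second Cd83 probe averaged -1.26 ± 0.09 in normal colon of DSS rats and -0.29 ± 0.35 in that of untreated rats (SD, 5 rats), a change of -0.97 with an adjusted p of 0.00954 over all probes. Cd63 fell by 0.44 ± 0.12 (adjusted p = 0.0356), with values that overlapped, and its call was lost without rat 2, 3, 4, 5, 6, 7 or 10 and without the 3 arrays with a raised share. Neither call passed within slide set 2 alone or under median centring.

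The remaining 44 antigens did not pass in normal colon. Cd276 lay higher in all 5 DSS rats than in any untreated rat, by 0.28 (adjusted p = 0.274), and Cd55 differed by 0.72 (95% confidence interval -0.21 to 1.65). The T cell antigens Cd2 and Cd3d differed by 0.11 and 0.16, and Cd48 by 0.02 (interval -0.49 to 0.52). Markers without a CD name did move: 2 of 8 neutrophil markers were higher in normal colon of DSS rats, with means of 0.83 to 1.13, against -0.05 to 0.25 in untreated rats. The macrophage and dendritic cell markers were higher in 2 of 14, with means of -0.10 to 0.14 in normal colon of DSS rats and -0.73 to -0.23 in that of untreated rats. Of 12 general leukocyte markers, 3 were higher and 1 was lower, and of 8 lymphoid follicle markers 2 were higher and none lower. None of 15 T and NK cell markers passed. All 6 squamous markers were higher, with a median log2 change of 2.85. Their part in the values of Cd83 and Cd63 was not tested.

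The fourth comparison, DSS against untreated in tumours, gave no call. None of 46 antigens passed in limma, as 0% of all 25703 features did, while 4 antigens (Cd47, Cd59b, Cd244 and Cd2) and 1644 features had an unadjusted p under 0.05. The changes of these 4 were -0.29, -0.81, -0.20 and -0.27. By its brighter probe, Cd47 had tumour values of 0.68, 0.75, 0.83, 0.20 and 0.19 in DSS rats, against 0.88, 0.78, 0.86, 0.80 and 0.78 in untreated rats. Both low values lie in slide set 2. The largest difference was -0.83 for Cd55 (95% confidence interval -1.76 to 0.10). A typical interval over the members reached 0.35 to either side of the value, with 5 rats per group.

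The last comparison tested whether the DSS effect differed between tumour and normal colon. It called 1 of 46 antigens, Cd83, with none lower, 2.17% of the members beside 2.65% of all features (0.899% higher, 1.75% lower). Cd83 in tumours was at -1.67, -2.13, -2.15, -1.55 and -2.002 in DSS rats, against -1.94, -2.33, -2.75, -2.34 and -2.57 in untreated rats. DSS went with a change of 0.49 ± 0.27 in tumours and of -1.31 ± 0.27 in normal colon, and the difference between these was 1.80 ± 0.39 (95% confidence interval 0.99 to 2.62, adjusted p = 0.0158). The difference was 1.40 within slide set 1 and 2.40 within slide set 2, and the second probe gave 1.25 (adjusted p = 0.0357 over all probes). Put by tissue, Cd83 was lower in tumour than in normal colon of untreated rats in all 5 rats, and in DSS rats the tumour was higher in 4 of 5. The call was lost without rat 3, without rat 4, and without the 3 arrays with a raised share. By the same test, squamous markers were lower in 5 of 6 and higher in none, with a median of -2.92. Neutrophil markers were lower in 2 of 8 and macrophage and dendritic cell markers in 2 of 14, with none higher. Of 12 general leukocyte markers, 2 were lower and 1 was higher. The part of these cell types in the Cd83 difference was not tested.

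Cd55 had the largest difference of this kind after Cd83, at -1.56 ± 0.63 (95% confidence interval -2.87 to -0.24). Its tumour values in DSS rats were 0.44, 0.62, 0.67, -0.47 and -0.45, against 0.60, 0.57, 1.13, 0.25 and -1.36 in their normal colon, and 2 of 5 tumours were the higher. The adjusted p was 0.223 in the fit without blocks, 0.0245 with rat as a fixed block and 0.0301 with slide set as a block.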

How the data were processed

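Colon RNA of 10 rats was measured on 24 two-colour arrays, with Cy3 for the sample and Cy5 for a pool of wild-type colon, without dye swaps. The deposited values were spot intensities that Agilent's Feature Extraction program had read, per the file headers. That program's own log10 ratios of Cy5 over Cy3, per the file headers, served only to check direction. The submitters' processing notes also list Partek without saying what it did.

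Mean intensities were background-corrected with normexp (offset 50) and loess-normalised within arrays in limma 3.58.1 (R 4.3.3). Probes stayed in where at least 5 arrays had Cy3 well above background, and the brightest kept probe stood for a gene. Repeat arrays of a rat and tissue were averaged, giving 20 samples. The share of missing values was 0.0751%, 1 of them among the members. limma fitted all 4 groups together, without a block, and p-values were adjusted by Benjamini-Hochberg over 25703 features at a threshold of 0.05. Confidence intervals and standard errors are from that fit, which was tested on simulated data. The simulated samples were independent, without rats or slide sets, so that test cannot show how the fit behaves with them. The number of arrays limits the precision.

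Tumour and normal colon with the same number came from the same rat, and their deviations from the group means correlated at 0.0824 to 0.565 over the 10 rats. The alternatives were other normalization, filters, probe choice, array weights, blocks for rat, slide and slide set, each slide set alone, and leaving out arrays or rats. Members, classes and marker lists were chosen with earlier results of these data known. The antigens named with values were, in each comparison, up to 4 called ones of each class with the smallest p, and a list of textbook members. With Cd320, singled out afterwards, these were 31. Cd93, Cd3g and Cd247, outside these, are given only by their change. 1 member that was not tested is not reported here by name.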

Additional observations from a re-analysis of the deposited data

Results flagged for a closer look

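In 7 of the 124 sets of 5 rats examined for the named antigens, 1 rat lay far from the other 4. Chance gives such a gap in about 1 in 20 sets. Normal colon of DSS rat 9 did so for 3 antigens: Cd302 at -1.23, with the others between -0.77 and -0.62, Cd40 at -0.91, with the others between -0.27 and -0.11, and Cd47 at -0.18, with the others between 0.23 and 0.37. The tumour of DSS rat 7 did so for Cd81, at 0.61 with the others between 1.16 and 1.37, and for Cd3e, at 0.23 with the others between -0.11 and -0.05. Cd52 in normal colon of untreated rat 10 was at -0.13, with the others between -0.83 and -0.65. Cd109 in the tumour of untreated rat 8 was at -0.18, with the others between -0.04 and 0.01. None of these 7 values came from the arrays with a raised share of probes above background. The DSS effect on Cd83 differed between tumour and normal colon by 1.80 on the log2 scale, by limma's test of that difference.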

How the results depend on the processing

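Of the 23 calls on antigens, 0 were kept in every alternative and 11 were lost in at most 2. Median centring called 2 antigens in tumour against normal colon of untreated rats, 1 in that of DSS rats, 0 for DSS in normal colon and 0 for the difference in DSS effect. It reversed 1 value, Cd63 in tumour against normal colon of DSS rats, at 0.24 (adjusted p = 0.679 in limma). Within slide set 1 the counts for untreated rats and for the difference in DSS effect were 8 and 0. Within slide set 2 the counts were 6 for untreated rats, and 0 for DSS rats, for DSS in normal colon and for the difference. Without the 3 arrays with a raised share, DSS in normal colon called 1 antigen and the difference 0. The difference called 2 antigens, Cd83 and Cd55, with slide set, with slide or with rat as a fixed block. The block for rat, which pairs the tissues, called 15 antigens in untreated rats and 7 in DSS rats, and apart from Cd40, Cd3e, Cd47, Cd59b and Cd55, whose blocked values stand beside their results, it changed no call of a named antigen. Leaving out each rat gave 9 to 15 calls in untreated rats, 2 to 6 in DSS rats, 1 to 2 for DSS in normal colon and 0 to 1 for the difference. DSS in tumours called 0 antigens in every setting run. The size of a change also depended on the setting. In untreated rats Cd48 ran from 0.41 to 1.93 over the alternatives. Cd40 was at 1.39 on the processed signals of Feature Extraction, against 0.58 in the main fit. The folds above therefore hold for the main fit only. The causes were not tested.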
